A study of Mus musculus with 8 samples.

Results

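The chitinase family comprised 9 genes of the 43432 in the deposited count table, chosen by matching Ensembl identifiers to gene symbols: Chia1, Chit1, Chil1, Chil3, Chil4, Chil6, Ovgp1, Chid1 and Ctbs. Their transcripts were measured by RNA sequencing in 8 libraries of lung cells positive for EpCAM, an epithelial surface protein, and negative for CD45, a surface protein of leukocytes, from 14-week-old C57BL/6J mice. The 3 wild-type (WT) libraries held all cells of that gate. The 3 C/+ libraries (heterozygous) and the 2 C/C libraries (homozygous for ChiaRed) held only its ChiaRed+ cells. ChiaRed is a reporter of Chia1, and how the allele was built is not given in the sources used here. WT therefore differed from the other groups in sorting as well as genotype, and C/C differed from C/+ in allele copies. Nothing in the labels says whether each library came from its own animal, so the p-values rest on a spread between libraries that may be partly technical.

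Chitin is a polymer of N-acetylglucosamine found in insects, mites, fungi and parasitic worms. Mammals do not make chitin, but they secrete active chitinases, acidic mammalian chitinase (AMCase, from Chia1) and chitotriosidase (from Chit1), together with chitinase-like proteins that bind sugars without cleaving the polymer. In the mouse lung, AMCase is a product of secretory and alveolar type 2 epithelial cells that degrades inhaled chitin, and several chitinase-like genes are induced in type 2 immune responses.

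Total counts per library ranged from 17057216 to 52319957. Of the 12 alveolar type 2 markers, which include the surfactant protein genes, the summed level in CPM (counts scaled to a common library size) was 197900 to 225400 for WT, 230500 to 238200 for C/+ and 264800 to 269000 for C/C, so all libraries carried the labelled cell type. In bulk samples fewer cells of a type and less RNA per cell cannot be told apart. By their Xist and Y-linked reads WT 2, WT 3 and C/+ 1 were male, and the other 5 libraries, the C/C pair among them, were female.

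Members Ovgp1, Chia1, Chil3, Chil4 and Chil6 and a further gene of the family, Chil5, which had 0 counts in all 8 libraries, lie close together on mouse chromosome 3 (GRCm38). Their order along the chromosome was Ovgp1 (105973711 to 105987423, plus strand), Chil5 (106016919 to 106032814, minus), Chia1 (106113229 to 106132120, plus), Chil3 (106147554 to 106167564, minus), Chil4 (106201490 to 106219507, minus) and Chil6 (106387384 to 106406182, minus). Ctbs lies farther along the same chromosome (146449795 to 146465849, plus). Chit1 (134111242 to 134151540, plus) and Chil1 (134182176 to 134190181, plus) are neighbours on chromosome 1, and Chid1 is on chromosome 7 (141493136 to 141539857, minus).

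Chia1, Chil3 and Chil4 shared a stretch near their RefSeq start sites that the choice of members did not use. The 30 bases around it are shown because these genes had unlike levels in the same libraries, from RefSeq on GRCm38.p6, 5′ to 3′ on each gene's own strand, with the shared TATA-containing run in capitals.
Chia1: tcaggtgtTATAAAAAGCCAtttgaggttc
Chil3: tcggagtaTATAAAAAGCCAgcagaagctc
Chil4: tcagagtgTATAAAAAGCCAgcagaagctc
They lie at chr3:106113331-106113360 on the plus strand for Chia1, and at chr3:106167546-106167575 and chr3:106219489-106219518 on the minus strand for Chil3 and Chil4. The capital run begins 43, 3 and 31 bases before the RefSeq start of its gene, and in Chil3 it runs across that start. For Chia1 the 30 bases lie inside the gene span given above, which starts at 106113229. The run TATAAAAAGCCA, the longest that the 3 start windows have in common, was searched on both strands from 250 bases before to 50 bases after the start. It was found in 8 of 32851 promoter entries (0.0244%), those of Chia1, Chil3, Chil4, Gm40930, Mstn, Olfr1228, Sprr1a and Sprr1b. Because the run was taken from Chia1, Chil3 and Chil4, their place among these entries was fixed in advance. The shorter TATAAA within it was found in 13.6% of entries, and Chil6 also held one. The palindrome of TTC and GAA with 4 bases between them, the type of site that STAT6, a factor activated by interleukin-4 and interleukin-13, binds, was in 6.95% of entries and in none of the members' windows. A match or its absence describes only the letters in these windows, and spacings of TTC and GAA other than 4 bases were not searched. The 250 bases before the start of Chil1, the family's most abundant transcript, held no TATAAA and are shown for contrast (chr1:134181906-134182155, plus strand).
Chil1: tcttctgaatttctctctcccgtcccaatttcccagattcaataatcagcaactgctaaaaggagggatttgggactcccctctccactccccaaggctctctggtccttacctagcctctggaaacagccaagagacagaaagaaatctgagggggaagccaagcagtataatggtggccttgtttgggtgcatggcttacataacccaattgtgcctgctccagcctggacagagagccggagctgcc

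The transcripts of the family are related but mostly separable. Globally aligned, the longest open reading frames of Chil3 and Chil4 had 1141 identical bases, 95.3% of the shorter one, and Chia1 had 76.8% with Chil3, 76.5% with Chil4, 76.1% with Chil6, 65.6% with Chil1 and 62.7% with Chit1. None of the 50-base stretches of Chia1, Chit1, Chil1, Chil6 or Ctbs recurred exactly in the transcripts of another gene. Of Chil3's stretches, 26.9% recurred, in Chil4 or Gm6522, of Chil4's 11% and of Ovgp1's 26.6%, in Gm42890. How reads matching several genes were counted is not given in the sources used here, so the values of Chil3, Chil4 and Ovgp1 are uncertain.

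Compared per length, as TPM (transcript levels as counts per kilobase of exon, scaled to a fixed sum), 2 members stood far above the other 7. In WT the mean levels were 5413 TPM for Chil1 and 520.6 TPM for Chia1, followed by Chil3 at 8.027, Chid1 at 6.963, Ctbs at 4.858, Ovgp1 at 1.737, Chil6 at 0.777, Chil4 at 0.01964 and Chit1 at 0.008588 TPM. Chil1, Chia1 and the remaining members occupied separate ranges in WT and in C/+. Chil3 varied so much between the WT libraries that its range covered the means of Chid1, Ctbs and Ovgp1, and it fell behind Chid1 and Ctbs when the longest transcript was taken as the length. In C/+ the order was Chil1 (4524 TPM), Chia1 (342.8), Chid1 (5.458), Ctbs (3.603), Ovgp1 (1.78), Chil3 (1.251), Chil6 (0.4127), Chil4 (0.1452) and Chit1 (0.01957). In C/C, Chia1 had moved from the second place to the fifth, behind Chil1 (4722 TPM), Chid1 (5.648), Ctbs (3.136) and Ovgp1 (1.08). Chia1 stood at 0.9948 TPM there, ahead of Chil3 (0.6257), Chil6 (0.123), Chit1 (0.1023) and Chil4 (0). The C/C levels of Chia1 in its 2 libraries, 1.599 and 0.3903 TPM, spanned the means of Ovgp1 and Chil3, so those neighbours in the order did not differ beyond their spread.

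**Figure D1:**
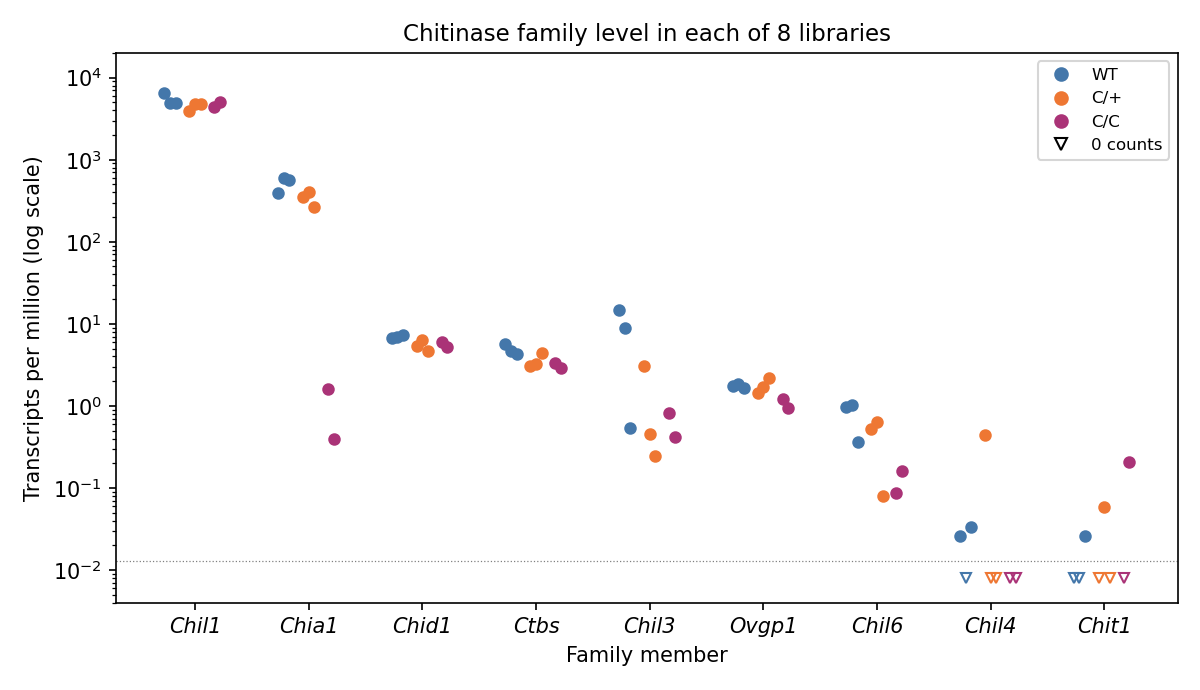
Level of the 9 family members in each library, in TPM on a log axis, with 1 point per library and open triangles for libraries with 0 counts. Chil1 lies between 3903 and 6464 TPM in every library, whereas Chia1 lies between 266.7 and 605.6 TPM in WT and C/+ and at 1.599 and 0.3903 TPM in C/C.

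Chia1 (ENSMUSG00000062778), the gene that ChiaRed reports, encodes a secreted chitinase active at acidic pH. The WT libraries held 10346, 9571 and 22881 Chia1 counts, the C/+ libraries 9298, 7307 and 3795, and the C/C libraries 63 and 14. Scaled to library size by TMM factors, the WT libraries stood at 267.5, 454 and 425.5 CPM, the C/+ libraries at 303.5, 340.9 and 223.2 CPM and the C/C libraries at 1.446 and 0.3649 CPM. WT and C/+ overlapped, since WT 1 lay below 2 of the C/+ libraries, and both C/C libraries lay far below all others. By TPM, Chia1 ranked between place 89 and 214 among the detected genes of each WT and C/+ library, above at least 98.7% of them. In C/C it ranked 10873 of 18236 and 13198 of 17847.

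The residual Chia1 signal in C/C was above counting noise. The exact 95% Poisson interval was 48.4 to 80.6 counts in C/C 1 and 7.65 to 23.5 in C/C 2, which cover counting error only, against a floor of 3 counts. As percentages of the WT mean, the C/C libraries stood at 0.378% and 0.0954%, a ratio of 3.96 between them, and their intervals of 1.11 to 1.85 and 0.199 to 0.612 CPM did not meet. A count per gene does not show which exons these reads came from. The label that describes the sorted cells as expressing AMCase was thus matched by abundant Chia1 transcript in C/+ but not in C/C.

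Heterozygous ChiaRed+ cells held 289.2 ± 60.1 CPM of Chia1 (SD, n = 3), 75.6% of the 382.3 ± 100 CPM (n = 3) of the whole WT gate. The difference was not called (edgeR log2 fold change -0.40, SE 0.28, adjusted p = 0.476), and its 95% interval, 0.489-fold to 1.17-fold of WT, left a wide range of values. Between C/C (0.9053 ± 0.764 CPM, n = 2) and C/+, Chia1 fell 311-fold (interval 144 to 671; log2 fold change -8.28, SE 0.50, edgeR adjusted p = 0.000124), the lowest p of all 14906 tested genes, with 9 genes showing larger fitted decreases. Between C/C and WT it fell 411-fold (interval 189 to 897; log2 fold change -8.68, SE 0.51, edgeR adjusted p = 3.96e-05). The size depended on which C/C library was used: against C/+ it was -9.61 without C/C 1 and -7.64 without C/C 2, and against WT -10.01 and -8.04, all called. Other alternatives moved the comparison of C/+ with WT between -0.61 (without WT 1) and -0.23 (with sex as a covariate), and none called it. WT 2 and WT 3, the WT libraries with more Chia1, were male, as was C/+ 1, and WT 1 was female.

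Markers of several other cell types moved between the same groups. The airway club cell markers summed to 4669 to 5949 CPM in WT, 9640 to 14520 in C/+ and 5421 to 5859 in C/C. The corresponding sums were 67.54 to 257.1, 500.8 to 864.4 and 52.57 to 58.86 CPM for endothelial, 8.661 to 30.98, 66.34 to 197 and 6.542 to 8.054 CPM for mesothelial, and 17.03 to 41.22, 83.78 to 227.7 and 14.59 to 18.95 CPM for mesenchymal markers. Each of these 4 sums was thus highest in C/+, with no overlap with WT or C/C. So was the neutrophil marker sum, at 0.3161 to 3.413, 6.438 to 23.79 and 1.056 to 1.199 CPM. Most of it in C/+ was the listed gene Ltf, at 21.8, 3.78 and 7.06 CPM. The goblet marker sum was 6.304 to 11.34 CPM in WT, 10.65 to 39.3 in C/+ and 7.389 to 7.559 in C/C, so WT and C/+ overlapped. Of 5 tested goblet markers edgeR called 3 lower in C/C than in C/+, against 5.33% of all tested genes.

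Counts of called markers followed the same order. Called higher in C/+ than in WT were 10 of 10 endothelial markers, 8 of 11 tested club markers, 5 of 9 mesenchymal markers and 5 of 6 mesothelial markers, against 3.42% of all tested genes. These counts leaned on single libraries. The club count was 5 without C/+ 1, and the endothelial count 1 without WT 2, 2 without C/+ 1 and 3 without C/+ 2. The mesothelial count was 0 to 3 without WT 1, WT 3, C/+ 1, C/+ 2, C/C 1 or C/C 2, and the mesenchymal count 1 to 3 without any library other than C/+ 3. Called lower in C/C than in C/+ were 8 club, 10 endothelial, 6 mesothelial and 6 mesenchymal markers, against 5.33% of all tested genes. These counts fell to 5, 5, 0 and 1 without C/C 1 and to 6, 8, 0 and 1 without C/C 2.

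Between C/C and WT fewer markers were called. The endothelial sum in C/C (52.57 to 58.86 CPM) lay wholly below WT (67.54 to 257.1 CPM), as did the mesothelial sum. Of 10 endothelial markers edgeR called 1, Calcrl, lower in C/C (log2 fold change -2.54, SE 0.58, adjusted p = 0.0463). An unadjusted p under 0.05 was found for 8 of these endothelial markers, and DESeq2 called 5. Of 10 ciliated markers edgeR called 2 lower in C/C, Foxj1 and Dnah9. Most of the club sum in WT and C/C was Cbr2, a carbonyl reductase gene that was not called in any comparison, at 4180 to 5140 CPM in all 8 libraries. Scgb3a1, a secretoglobin gene, was lower in C/C than in WT, at 0.4026 against 6.974 CPM (log2 fold change -4.02, SE 0.91, edgeR adjusted p = 0.0471). It was the only club marker edgeR called there, whereas 5 had an unadjusted p under 0.05 and DESeq2 called 3. Over all tested genes edgeR called 2.98% in that comparison, and 22.1% had an unadjusted p under 0.05. The alveolar type 2 marker sum was highest in C/C, but most of it was Sftpc, a surfactant protein gene, at 104000 to 167000 CPM. Its 12 markers moved both ways between C/C and WT, and edgeR called 0 of them (DESeq2 4). Lower in C/C without overlap were Abca3 (log2 fold change -0.33), Etv5 (-0.32) and Slc34a2 (-0.28). Higher without overlap were Sftpc (0.45), Cxcl15 (0.35), Sftpa1 (0.3), Sftpb (0.23), Napsa (0.14) and Sftpd (0.11). The part of these cell types in the Chia1 values, C/+ against WT included, was not tested.

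Chit1 encodes chitotriosidase, the other active chitinase, known chiefly from macrophages. It was hardly detected, with 1 count in WT 3, 1 in C/+ 2, 7 in C/C 2 and 0 in the other 5 libraries. The floor of 3 counts per library corresponded to 0.0558 to 0.176 CPM, and the C/C 2 value of 0.1824 CPM (exact Poisson interval 2.81 to 14.4 counts) was the only one above its library's floor. Chit1 did not pass the low-count filter, and in a fit without the filter its edgeR adjusted p was 0.94 for C/+ against WT, 0.674 for C/C against C/+ and 0.519 for C/C against WT.

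Chil1 encodes the chitinase-like protein BRP-39, the mouse counterpart of human YKL-40. It stood at 6467, 5430 and 5419 CPM in WT, 4950, 5947 and 5950 CPM in C/+, against 5912 and 6896 CPM in C/C. The groups overlapped throughout, and Chil1 ranked between place 14 and 22 by TPM in every library. The log2 fold change was -0.04 (95% interval -0.31 to 0.24, edgeR adjusted p = 0.887) for C/+ against WT, 0.19 (-0.12 to 0.50, adjusted p = 0.497) for C/C against C/+ and 0.15 (-0.16 to 0.46, adjusted p = 0.571) for C/C against WT. These intervals exclude a change of Chil1 as large as that of Chia1 in C/C.

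The balance between the 2 abundant members followed from these values. As a share of Chil1 TPM, Chia1 TPM amounted to 10% ± 3.4 (SD) for WT, 7.67% ± 1.88 for C/+ and 0.0219% ± 0.0199 for C/C. Chil1 took 88.66% to 94.55% of the family's summed TPM in WT and C/+, and 99.71% and 99.79% in C/C. The other 7 members together took 0.198% to 0.431%. The summed family level was 5436 to 6888 TPM in WT, 4269 to 5267 in C/+, against 4451 and 5017 in C/C, so the sum in C/C lay within the range of C/+. TPM were not scaled by the TMM factors, so differences between groups in TPM need not match those in CPM. Chil1, for example, had means of 5413 TPM in WT and 4722 TPM in C/C, but 5772 and 6404 CPM.

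**Figure D2:**
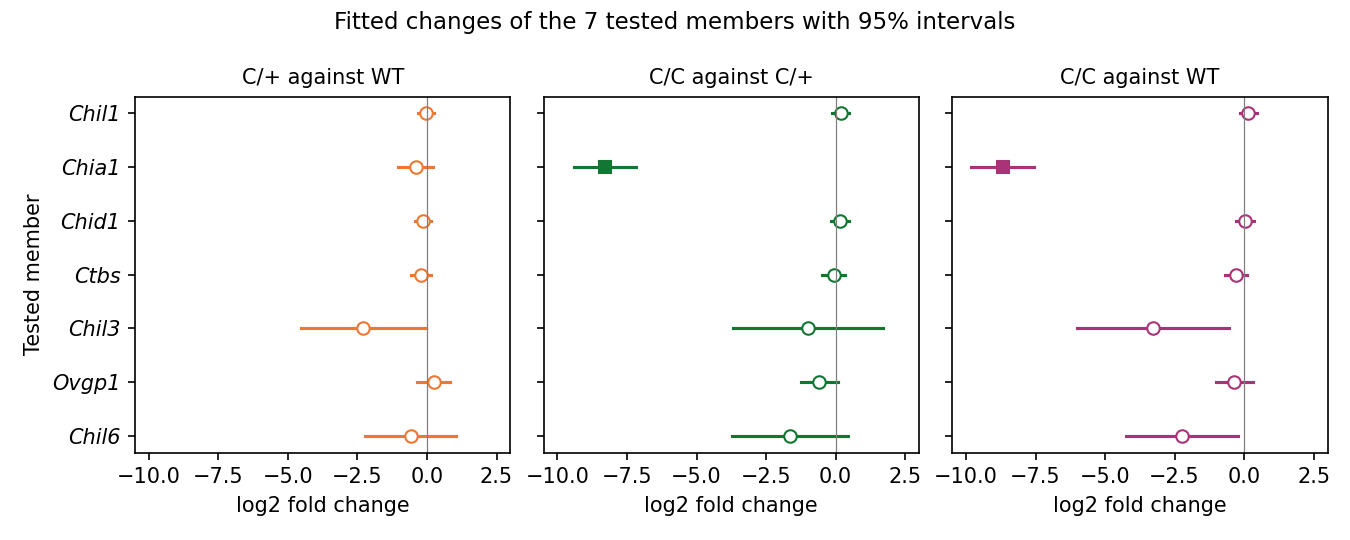
Log2 fold change of each tested family member with its 95% interval in the 3 comparisons, with filled squares for called genes and open symbols for the rest. Chia1 sits at -8.28 and -8.68 in the C/C comparisons, and no other member was called.

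Chil3 encodes Ym1, a chitinase-like protein abundant in alternatively activated and alveolar macrophages. It had 329, 121 and 19 counts in WT, 69, 7 and 3 in C/+, against 28 and 13 in C/C, or 8.505, 5.74 and 0.3533 CPM, 2.252, 0.3266 and 0.1764 CPM, and 0.6425 and 0.3388 CPM. WT 1, WT 2 and C/+ 1 were high and the other 5 libraries low, so the groups overlapped in all 3 comparisons. The log2 fold change was -2.29 (SE 1.01, edgeR adjusted p = 0.239) for C/+ against WT, -0.99 (SE 1.21, adjusted p = 0.715) for C/C against C/+ and -3.28 (SE 1.24, adjusted p = 0.155) for C/C against WT. Without the low-count filter, edgeR called the first (adjusted p = 0.00193) and the last (adjusted p = 0.000267), and without C/+ 1 the second turned to 0.93 (adjusted p = 0.792).

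Markers of leukocytes were highest in the same 3 libraries. The 10 pan-leukocyte and lymphocyte markers summed to 5.688, 6.831 and 2.027 CPM in WT, 7.605, 0.8397 and 0.2941 CPM in C/+, against 0.6655 and 1.303 CPM in C/C, and their part in the Chil3 values was not tested. The 14 alveolar macrophage markers summed to 224.5 to 263.5 CPM in WT, 241.5 to 357.8 in C/+, against 304.9 and 317.1 in C/C. Most of that sum was Fabp5, a fatty acid binding protein gene, at 181 to 288 CPM in all libraries. Some other listed markers were present in every library and were not highest in WT 1 or WT 2: Cd68 at 5.84 to 12.6 CPM, most in C/C, Csf1r at 3.29 to 6.46 CPM and Pparg at 1.4 to 3.6 CPM. Mrc1, Ear2, Itgax and Ear1 were highest in WT 1 or WT 2, all at low levels. Mrc1 had 0.827, 1.09 and 0.783 CPM in WT 1, WT 2 and C/+ 1 and at most 0.443 elsewhere. For Ear2 these values were 0.439, 0.806, 0.457 and 0.0521 CPM. Itgax had 0.517 and 0.806 CPM in WT 1 and WT 2 and at most 0.184 elsewhere. Marco, Siglecf and Adgre1, surface proteins of lung macrophages, reached at most 0.259, 0.233 and 0.285 CPM, all in WT 1 or WT 2, and each was at 0 in 3 or more libraries.

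**Figure D3:**
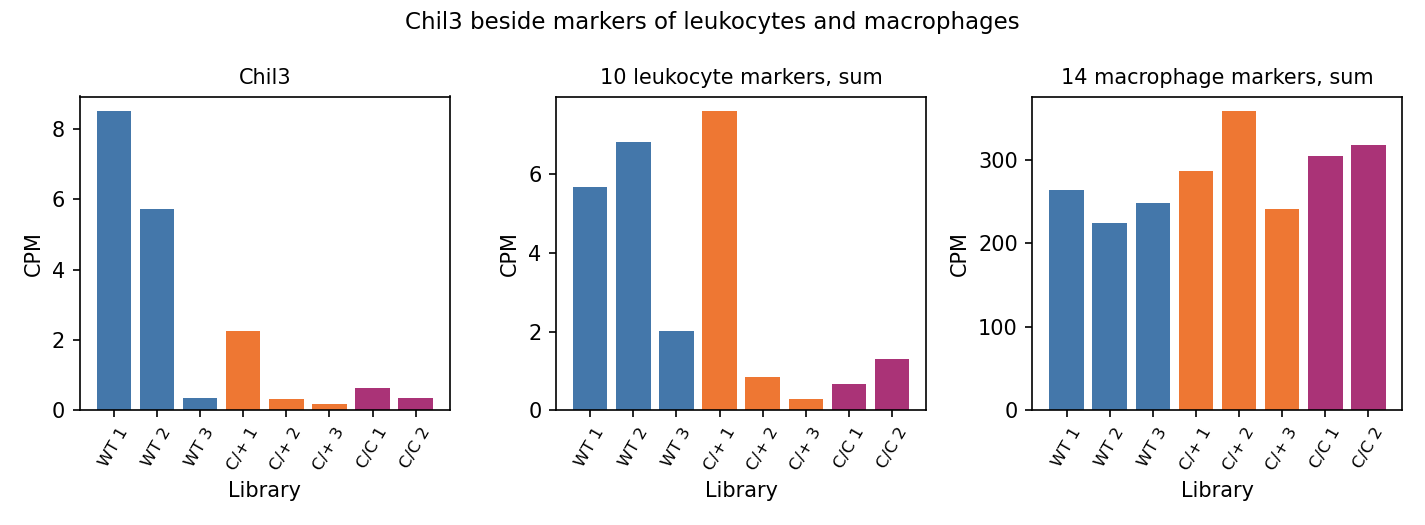
Chil3 level and the summed levels of 10 leukocyte and 14 macrophage markers in each library, in CPM, as bars that start at 0 (WT blue, C/+ orange, C/C purple). The 3 libraries with the most Chil3, WT 1, WT 2 and C/+ 1, are also those with the highest leukocyte marker sums, from 5.688 to 7.605 CPM, whereas the macrophage sum is 224.5 to 357.8 CPM throughout.

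Chil4 encodes Ym2, the closest relative of Ym1, and rested on a single library. It had 17 counts in C/+ 1 (0.5549 CPM), 1 in WT 1, 2 in WT 3 and 0 in the other 5. It did not pass the low-count filter, and without the filter its edgeR adjusted p was 0.409, 0.171 and 0.605 for C/+ against WT, C/C against C/+ and C/C against WT. C/+ 1 also held the most Chil3 counts of its group, and part of the sequence of these genes is shared, as given above. WT 1 and WT 2 held more Chil3 counts, 329 and 121 against 69 in C/+ 1, with 1 and 0 Chil4 counts. The part of shared reads in the Chil4 counts was not tested.

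Chil6, a chitinase-like gene at the far end of the cluster from Chia1, had 22, 14 and 13 counts in WT, 12, 10 and 1 in C/+, against 3 and 5 in C/C. At 0.5688, 0.6642 and 0.2417 CPM in WT, both C/C libraries (0.06884 and 0.1303 CPM) were lower than every WT library, whereas C/+ ran from 0.05881 to 0.4665 CPM and overlapped both groups. The log2 fold change for C/C against WT was -2.24 (SE 0.91), which was not called (edgeR adjusted p = 0.184, unadjusted p = 0.0335), and C/C against C/+ gave -1.64 (SE 0.93, adjusted p = 0.366). These C/C libraries held at most 5 counts, so counting error limits this value.

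Ovgp1 encodes oviductin, a secreted glycoprotein with a chitinase-like domain. It stood at 2.197, 2.562 and 2.343 CPM in WT, 2.285, 2.659 and 3.47 CPM in C/+, against 2.042 and 1.668 CPM in C/C. Both C/C libraries were below all others, but the differences were not called, with log2 fold changes of -0.59 (SE 0.30, edgeR adjusted p = 0.311) against C/+ and -0.35 (adjusted p = 0.541) against WT. C/+ against WT gave 0.24 (adjusted p = 0.663).

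The intracellular members had moderate levels and no call. Chid1, which encodes a chitinase domain protein of the endosomal and lysosomal system, stood at 25.96, 29.79 and 31.16 CPM in WT, 26.21, 30.14 and 22.41 in C/+, against 31.02 and 28.15 in C/C, with overlap in every comparison. Its log2 fold changes were -0.14, 0.17 and 0.03 (lowest edgeR adjusted p = 0.566). Ctbs encodes lysosomal chitobiase, which removes N-acetylglucosamine from the reducing end of glycoprotein sugar chains. It stood at 12.2, 11.1 and 10.26 CPM in WT, 8.454, 8.63 and 11.88 in C/+, against 9.638 and 8.679 in C/C. Both C/C libraries were under all WT libraries, with a log2 fold change of -0.29 (adjusted p = 0.397), and the other comparisons gave -0.22 and -0.07 (lowest adjusted p = 0.514).

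Of the 9 members, 7 passed the low-count filter, and Chit1 and Chil4 did not. Between C/+ and WT, edgeR called 0 of the 7 (DESeq2 also 0), against 3.92% of all 14906 tested genes (3.42% higher and 0.503% lower). Between C/C and C/+ it called 1, Chia1, which was lower, against 7.08% of all genes (1.75% higher and 5.33% lower). Between C/C and WT it again called 1, Chia1, against 2.98% (1.62% higher and 1.36% lower). Unadjusted p-values under 0.05 were found for 1 member, 1 member and 3 members, against 20.1%, 20.9% and 22.1% of all genes. The members' median log2 fold change was -0.22, -0.59 and -0.35 in these comparisons, and -0.18, -0.33 and -0.32 without Chia1, whereas the median of all tested genes was 0.005, -0.008 and -0.026. Groups did not overlap for 0, 2 and 4 of the 7 members, against 24.8%, 38.3% and 43.3% of all tested genes, so non-overlap in C/C was common across the table. The comparisons share libraries and are not independent of each other.

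The genes around Chia1 gave no called change. Of 32 genes within 1 Mb on either side, 19 were tested, and edgeR called 0 in each comparison (3, 1 and 5 at an unadjusted p under 0.05, and 0, 0 and 1 by DESeq2 for C/+ against WT, C/C against C/+ and C/C against WT). Between C/C and C/+ their log2 fold changes ran from -1.64 (Chil6) to 0.81 (Cd53, a leukocyte tetraspanin gene), with a median of -0.05. The nearest member, Chil3, starts 54.3 kb from the start of Chia1.

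**Figure D4:**
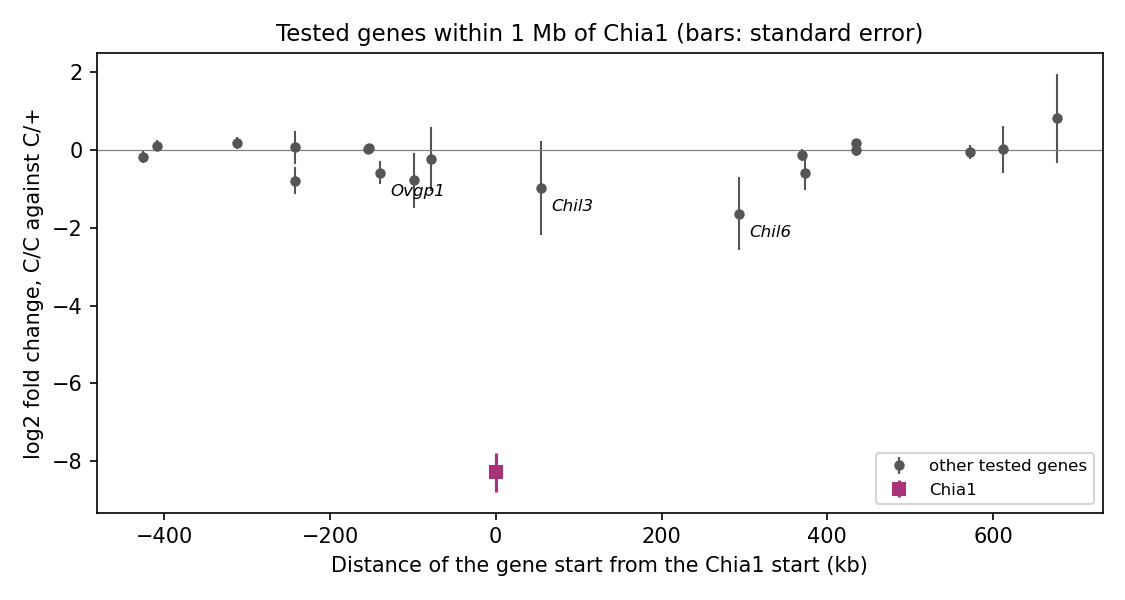
Log2 fold change between C/C and C/+ of Chia1 and of the 19 other tested genes within 1 Mb, against the distance of their start from that of Chia1 in kb, with bars of 1 SE to each side. Chia1 lies at -8.28 and the others between -1.64 and 0.81.

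Likeness of pattern was measured as the root mean square difference of log2 CPM after centring each gene on its mean, over 8978 genes with at least 10 CPM in some group. Over all 8 libraries the genes nearest to Chia1 were Rpl26 (a difference of 1.438), 2610507I01Rik (1.726), Wnt3a (2.106), Scgb3a1 (2.258) and Reg3g (2.464), against a spread of 3.794 for Chia1 itself. Rpl26, a ribosomal protein gene with processed copies that can share its reads, had 37.2, 60.5 and 71.8 CPM in WT, 47.8, 86.2 and 22.2 in C/+, against 0.78 and 1.02 in C/C. Wnt3a, a secreted Wnt ligand gene, had 12.5, 10.3 and 9.3 CPM, 3.07, 6.76 and 1.24 CPM, and 0.207 and 0.235 CPM. Both shared with Chia1 their lowest values in C/C, a likeness built into this choice, since Chia1's own spread was mostly its fall there. Wnt3a passed the minimum of 10 CPM only through WT (means 10.7, 3.69 and 0.221 CPM in WT, C/+ and C/C). Scgb3a1 (6.97, 50.5 and 0.403 CPM) and Reg3g (1.59, 11.3 and 0.0735 CPM) passed only through C/+. Their means, unlike that of Chia1, were higher in C/+ than in WT. In the 6 WT and C/+ libraries the nearest genes were others, Slc8b1 (0.104), Nptxr (0.105), Zfp651 (0.106), Mapk8ip1 (0.110) and Cyth1 (0.123), against 0.358 for Chia1. For Chil1 they were Tada3 (0.045), Gid8 (0.050), Ggcx (0.051), G6pdx (0.051) and Prr14 (0.052), against 0.142 for Chil1, a pattern that was nearly flat.

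The other genes of chitin and chitinase biology were examined as lists. Over all tested genes, edgeR called 3.92%, 7.08% and 2.98% in C/+ against WT, C/C against C/+ and C/C against WT. An unadjusted p under 0.05 was found for 20.1%, 20.9% and 22.1%, and the list counts are to be read beside these shares. Of 12 tested genes of N-acetylglucosamine synthesis and salvage, 1 was called higher in C/+ than in WT and the same 1 lower in C/C than in C/+, and 0 were called by edgeR between C/C and WT (0 with unadjusted p under 0.05, DESeq2 0). The list medians were -0.05, -0.02 and -0.02. That gene was Gfpt2, an isoenzyme of the first step of hexosamine synthesis, at 0.414, 0.38 and 0.242 CPM in WT, 3, 1.77 and 1.24 in C/+, against 0.321 and 0.0521 in C/C. Its log2 fold changes were 2.56 (SE 0.61, edgeR adjusted p = 0.0459) and -3.38 (SE 0.75, adjusted p = 0.0213). The first call was lost without any 1 of WT 1, WT 2, WT 3, C/+ 1 and C/+ 2 (adjusted p = 0.0789 to 0.162), the second without C/+ 1 (0.07) or C/C 2 (0.145). Like the club, endothelial, mesothelial and mesenchymal marker sums, Gfpt2 was highest in C/+, and their part in its changes was not tested.

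The 12 glycoprotein-degrading enzymes, the functional companions of Ctbs, had no call by edgeR in any comparison (2, 0 and 0 with unadjusted p under 0.05, DESeq2 0), with medians of 0, -0.03 and 0.02. The highest were Ctsa, protective protein or cathepsin A, at means of 122, 118.3 and 124.1 CPM in WT, C/+ and C/C, and Fuca1, a lysosomal fucosidase, at 105.4, 106.6 and 118.2 CPM.

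Among 5 tested hyaluronan synthases and hyaluronidases, 1 was called higher in C/+ than in WT and 2 lower in C/C than in C/+. Between C/C and WT edgeR called 0 (3 with unadjusted p under 0.05, DESeq2 2), and the medians were 0.2, -0.83 and -0.54. Cemip2, a cell-surface hyaluronidase, had 19.5, 16.9 and 14.7 CPM in WT, 39.8, 36.2 and 23.3 in C/+, against 10.9 and 9.93 in C/C. Its log2 fold changes were 0.96 (SE 0.19, edgeR adjusted p = 0.0242) and -1.67 (SE 0.22, adjusted p = 0.00232). The first call was lost without WT 2, WT 3, C/+ 1 or C/+ 2 (adjusted p = 0.0871 to 0.0901), and the second was called in every fit that left out a library. Hyal2, a membrane-anchored hyaluronidase, fell from 21.04 CPM in C/+ to 11.88 in C/C (log2 fold change -0.83, SE 0.17, edgeR adjusted p = 0.0153), a call lost without C/C 1 (0.212) or C/C 2 (0.0695). By group mean, Cemip2 and Hyal2 were highest in C/+ and lowest in C/C, as were the endothelial marker sums given above (C/+ 500.8 to 864.4 CPM, C/C 52.57 to 58.86 CPM), and the part of those cells in these changes was not tested.

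Among 7 tested genes for reported receptors and partners of chitin or chitinase-like proteins, edgeR called 0 in each comparison (0, 1 and 1 with unadjusted p under 0.05, DESeq2 0, 1 and 1), with medians of -0.07, -0.01 and -0.06. Ager, which encodes RAGE, had means of 1768, 1690 and 1650 CPM and Cd44, a hyaluronan receptor gene, 162.8, 155.3 and 173 CPM. Fibcd1, a chitin-binding receptor gene, had 0 counts in all 8 libraries.

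The type 2 cytokines, receptors and transducers, upstream of chitinase family genes in inflamed lung, had 11 tested genes. Between C/+ and WT edgeR called 0 (4 with unadjusted p under 0.05, DESeq2 2), 1 fell between C/C and C/+, and 2 were lower in C/C than in WT. The medians were -0.13, -0.04 and -0.19. Il2rg, the common cytokine receptor gamma chain, fell from 3.948 CPM in C/+ to 0.1387 in C/C (log2 fold change -4.82, SE 0.67, edgeR adjusted p = 0.00254), and against 1.207 CPM in WT by 3.09 on the log2 scale (SE 0.65, adjusted p = 0.0392). Il2rg too was highest in C/+, with those marker sums. Its call against WT was lost without WT 1, WT 2, C/+ 2, C/C 1 or C/C 2 (adjusted p = 0.0587 to 0.29). Il4ra, the receptor chain shared by interleukin-4 and interleukin-13, had 72.9, 76.5 and 67.4 CPM in WT, 63, 62.9 and 59.9 in C/+, against 44.7 and 50.4 in C/C. It was lower in C/C than in WT (log2 fold change -0.60, SE 0.10, edgeR adjusted p = 0.0203), a call lost without WT 2 (0.0861), C/C 1 (0.239) or C/C 2 (0.125).

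Of the 9 tested genes known to be induced with the family in type 2 inflammation, 1 was lower in C/+ than in WT, 1 lower in C/C than in C/+, and edgeR called 0 between C/C and WT (1 with unadjusted p under 0.05, DESeq2 0). The medians were 0.46, -0.16 and -0.23. Slc26a4, the anion exchanger pendrin, fell from 52.8 CPM in WT to 22.84 in C/+ (log2 fold change -1.22, edgeR adjusted p = 0.0464), a call lost when any library other than C/+ 3 was left out (adjusted p = 0.0638 to 0.156). Clca1, a secreted goblet cell protein gene, fell from 3.241 CPM in C/+ to 0.03442 in C/C (log2 fold change -6.36, SE 1.53, edgeR adjusted p = 0.0321), lost without C/+ 1 (0.0961), C/+ 2 (0.0657), C/C 1 (0.177) or C/C 2 (0.23). Clca1 is also one of the goblet cell markers, and its level moved with the airway secretory markers given above.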

How the data were processed

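RNA was taken from sorted lung cells with a column kit and DNase, and stranded mRNA libraries were made, per the labels. The authors deposited whole-number read counts per gene for 43432 mouse Ensembl identifiers in 8 libraries. The submitters' processing notes name STAR 2.4.2a, DESeq2 and the human build GRCh38, although identifiers are those of mouse; the sources used here do not give the counter, strand setting or annotation. GENCODE M21 (GRCm38) gave symbols, positions and exon lengths for 42462 identifiers; 970 did not match. TPM were computed from union exon lengths.

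One edgeR 4.0.16 quasi-likelihood model (R 4.3.3; group means, filterByExpr, TMM factors 0.915 to 1.06) was fitted to all 8 libraries and tested on simulated data. It called 49% to 62% of simulated 2-fold changes and 69% to 82% of 4-fold changes, so a gene not called may still have changed. It also called 14, 9 and 10 genes simulated without change, in C/+ against WT, C/C against C/+ and C/C against WT. The true calls beside them were 54, 49 and 62 at 2-fold and 82, 82 and 69 at 4-fold. Some called genes may therefore be false, above all those with adjusted p near 0.05. Two-sided F tests compared the groups. P-values were adjusted by Benjamini-Hochberg over all 14906 tested genes, those under 0.05 were called, and 95% intervals came from the fit's standard errors. DESeq2 1.42.0 was an alternative. Other alternatives were DESeq2 size factors, no filter, a minimum of 1 CPM in 5 libraries, fits of only the compared groups, thinning, sex, a replicate block and leaving out each library; applying them to the pathway and marker lists was decided after seeing the data. Within groups, libraries differed beyond sampling noise (chi-square 12.2 to 73.5 per gene).

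The members and gene lists were chosen with earlier results of these data known. Named were all members, other genes with symbols in Chia or Chil, called genes of the pathway lists (or the 2 highest), and the 5 genes most like Chia1 or Chil1. Protein sequences were not used here.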

Additional observations from a re-analysis of the deposited data

How the results depend on the processing

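Chia1 kept its direction and its side of the threshold in all 3 comparisons under all 16 alternatives. The counts of called genes over the table moved more. C/+ against WT had 585 called genes, and 1263 with the DESeq2 test, 1299 without a low-count filter, 356 with the compared groups alone, 1700 with sex as a covariate, and 103 to 729 when 1 library was left out. C/C against C/+ had 1056, and 1609 with DESeq2, 1614 without the filter, and 185 to 1308 when 1 library was left out. C/C against WT had 444, and 1476 with DESeq2, 1456 without the filter, 1348 with sex, and 30 to 782 when 1 library was left out. Without the filter 1 family member was called in the first comparison and 2 in the last, in each case through Chil3.

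The labels do not say whether the replicate numbers pair libraries. Deviations of same-numbered libraries from their group means correlated at -0.21 to 0.09. These values cannot settle the question, because deviations within groups this small are tied to each other by the centring. With a replicate block 457, 799 and 176 genes were called in the 3 comparisons, and 2 family members between C/C and WT, Chia1 and Chil3.

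Changes of sign occurred among uncalled members only. Leaving out 1 library at a time, Chil1 in C/+ against WT ran from -0.09 to 0.05 (0.05 without WT 1 and 0.04 without C/+ 1). In C/C against C/+, Chil3 ran from -1.52 to 0.93 (the latter without C/+ 1), and Ctbs from -0.16 to 0.10 (0.10 without C/+ 3, 0.01 without C/C 2). For C/C against WT, Chil1 turned to -0.02 with sex, and Chid1 to -0.06 without WT 1 and -0.04 without C/C 1. The cause of these changes was not tested. A filter of 1 CPM in 5 libraries left Chil3 and Chil6 without a value. Depth limits Chit1, Chil4 and Chil6, which had few counts. For Chia1 in C/C the limit is the difference between the libraries, which went beyond counting error.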
